A study of Mus musculus with 12 samples.

Results

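Marco, Cd163, C1qa and C1qb are 4 genes that the resident macrophages of the mouse liver, the Kupffer cells, are known to transcribe. They were taken by symbol from a table of 547 genes, and all 4 were found, under the gene identifiers 17167, 93671, 12259 and 12260. RNA was measured with barcoded NanoString probes, each of which binds 1 transcript and is counted, in 12 mice, all male, of the C57BL6-NJ background. The series title gives the tissue as liver, which the sample labels do not. Wild-type mice were compared with mice carrying a constitutive knockout of SphK2, an enzyme that makes the lipid signal sphingosine 1-phosphate. In each genotype 3 mice ate a Western diet and drank sugar water, a model of early steatohepatitis, and 3 mice had control diet and normal water. Labelled ages were 231 to 232 days in the wild-type control group, 250 to 259 in the knockout control group and 226 to 232 in the wild-type Western-diet group. In the knockout Western-diet group they were 221, 217 and 252 days. The labels give a different diet duration for each mouse, from 16 to 27 weeks, whereas the protocol gives 16 weeks for all, so the time on diet is uncertain. A start at up to 18 weeks of age followed by 16 weeks of diet gives at most 238 days, which 4 knockout mice exceed. The constitutive deletion is present in all cells, so the design cannot tell in which cells a difference between genotypes arises.

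Kupffer cells line the sinusoids of the liver and clear particles, bacteria and spent red cells from the blood. MARCO is a scavenger receptor with a collagen-like stalk that binds bacteria and particles. CD163 takes up free haemoglobin and is a widely used marker of resident and anti-inflammatory macrophages. The A and B chains encoded by C1qa and C1qb join with a C chain to form C1q, the recognition molecule that starts the classical complement pathway. In the liver C1q is made mainly by macrophages, whether resident or recruited, and not by hepatocytes, which make most other complement proteins. In fatty liver disease, resident Kupffer cells are known to be lost in part and replaced by macrophages derived from monocytes.

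Of 19 genes listed as Kupffer cell markers, only these 4 were among the genes measured. Clec4f, Timd4 and Vsig4, which define resident Kupffer cells more strictly, were not measured, so the resident identity in the working name could not be checked. Neither C1qc, the gene of the C chain, nor Sphk2 was measured, and the loss of Sphk2 transcript was therefore not checked here. All 4 genes passed the filter on low values, a mean of at least 20 normalized counts, as did 453 of the 547 genes.

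The 250 bases before the start of 3 of the 4 genes are shown because the members moved in different directions, and they let their upstream sequence be set side by side. The sequences are those of RefSeq on GRCm38.p6: Marco at chr1:120505025-120505274 on the minus strand, Cd163 at chr6:124304401-124304650 on the plus strand, and C1qb at chr4:136886201-136886450 on the minus strand. Each is written 5′ to 3′ in the direction of transcription. Capitals mark GAGGAA, the core bound by the macrophage factor PU.1, and TGCTGA, a half-site bound by MAF factors.
Marco: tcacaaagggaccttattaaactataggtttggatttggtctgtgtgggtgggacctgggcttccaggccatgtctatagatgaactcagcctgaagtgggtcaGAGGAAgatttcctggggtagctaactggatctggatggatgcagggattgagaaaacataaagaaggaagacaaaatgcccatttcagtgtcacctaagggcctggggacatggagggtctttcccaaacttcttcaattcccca
Cd163: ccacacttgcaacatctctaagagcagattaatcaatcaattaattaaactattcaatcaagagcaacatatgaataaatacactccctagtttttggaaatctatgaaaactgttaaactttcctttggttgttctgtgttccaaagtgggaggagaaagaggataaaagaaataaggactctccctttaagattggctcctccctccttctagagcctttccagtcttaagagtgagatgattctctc
C1qb: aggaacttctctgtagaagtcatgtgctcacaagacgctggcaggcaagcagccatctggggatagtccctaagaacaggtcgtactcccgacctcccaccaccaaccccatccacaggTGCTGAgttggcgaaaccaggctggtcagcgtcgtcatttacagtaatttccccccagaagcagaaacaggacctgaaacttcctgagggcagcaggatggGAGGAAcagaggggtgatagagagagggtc
Both motifs were searched on both strands, and their matches did not overlap. GAGGAA stood 146 to 141 bases before the start of Marco and 30 to 25 bases before that of C1qb. TGCTGA stood 131 to 126 bases before the start of C1qb. Neither was found in the window of Cd163. Of 32851 windows of this length in the table, 23.3% held GAGGAA or its reverse complement and 16.1% held TGCTGA or its reverse complement. In the order of genes on the chromosome, C1qb, C1qc and C1qa are direct neighbours.

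Library depth, as whole counts recovered from the deposited values, was 440842 to 643638. On the first principal component, which held 58.9% of the variance, wild-type Western-diet replicate 2 lay among the control-diet libraries, and the second component set knockout control-diet replicate 2 apart. A second deposited table holds the same values under other mice in all 12 columns. The values here follow the workbook, whose rows of animal, diet and genotype name each column, and with the other assignment limma called 0 genes in the 4 comparisons and the interaction, where 22 to 71 had an unadjusted p under 0.05. The main results of the 4 genes that rest on either library are also given without both. The measured tissue holds many cell types, and for every gene here fewer cells of a type and less RNA per cell cannot be told apart. Probes differ in efficiency, so levels of different genes were not ranked against each other.

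Averaged over the other factor, Marco was higher in the knockout than in the wild type, a call that depended on the scaling of libraries, and lower on the Western diet than on the control diet. In wild-type control mice it stood at 163.5, 91.8 and 134 normalized counts, with a mean of 129.8 ± 36.1 (SD, n = 3 here and below). In knockout control mice it stood at 218, 240 and 228 (228.6 ± 11.2). The 3 knockout mice all lay above the 3 wild-type mice. Western-diet wild-type mice had 83.5, 67.3 and 71.9 (74.2 ± 8.34), each below every wild-type mouse on the control diet. Knockout mice on the Western diet had 169, 79.5 and 127 (125.4 ± 44.9), each below every knockout mouse on the control diet. Within the Western diet, knockout replicate 2 lay below wild-type replicate 1, so the genotypes overlapped there. From high to low, the order of the means was knockout control, wild-type control, knockout Western and wild-type Western, and the 2 groups in the middle overlapped.

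By limma, fitted to all 453 tested genes with Benjamini-Hochberg adjustment at 0.05, Marco fell in the knockout from the control to the Western diet by 0.93 on the log2 scale (SE 0.26, adjusted p = 0.0116), a 1.90-fold difference. The other 3 single comparisons did not pass. On the Western diet the knockout minus wild-type difference was 0.69 (SE 0.26, adjusted p = 0.0546), and it was 0.13 recentred on the sample median and 0.17 after quantile normalization. The control-diet value was 0.85 (SE 0.26, adjusted p = 0.113). In the wild type the Western minus control difference was -0.76 (SE 0.26, adjusted p = 0.0873). The interaction, which asks whether the diet difference depends on genotype, was -0.16 with a 95% interval from -0.95 to 0.63 (adjusted p = 0.807).
Averages over the other factor were added after seeing the data. Averaged over both diets, Marco was higher in the knockout by 0.77 (SE 0.18, adjusted p = 0.0130), 1.70-fold. That call was lost when libraries were recentred on their medians (0.43, adjusted p = 0.0695), after quantile normalization (0.43, adjusted p = 0.0966) and with age as a covariate (0.70, adjusted p = 0.0972). Averaged over both genotypes, it was lower on the Western diet by 1.80-fold (log2 difference -0.85, SE 0.18, adjusted p = 0.00278). Without both libraries that stood apart these averages were 0.72 and -0.79 (adjusted p = 0.0337 and 0.00763). With age as a covariate, the fall in the knockout was -0.79 and did not pass (adjusted p = 0.176). Labelled ages were highest in the knockout control group, with 1 knockout Western-diet mouse, replicate 3, in its range.

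**Figure D1:**
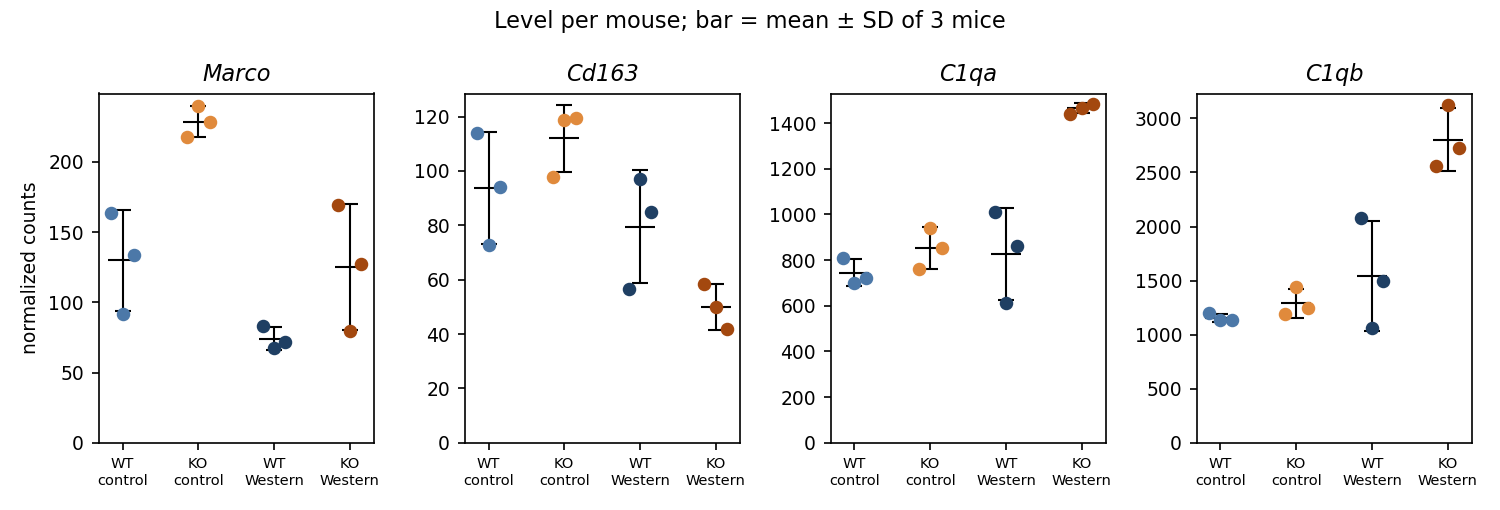
Normalized counts of Marco, Cd163, C1qa and C1qb in each of the 12 mice by genotype and diet, on linear axes from 0; the bars are the mean ± SD of 3 mice. C1qa and C1qb are highest in the 3 knockout (KO) mice on the Western diet, where Cd163 has its lowest mean, while Marco is highest in the knockout mice on the control diet.

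Cd163 had its lowest levels in the knockout mice on the Western diet. They stood at 58.4, 49.9 and 41.7 normalized counts (50.01 ± 8.36), against 97.8, 119 and 119.5 (112 ± 12.3) in the knockout on the control diet. Those groups did not overlap. Wild-type mice stood at 114, 72.8 and 94.1 (93.6 ± 20.6) on the control diet and at 56.6, 96.9 and 84.9 (79.5 ± 20.7) on the Western diet, and these groups overlapped. Wild-type Western-diet replicate 1 lay within the range of the knockout mice on the same diet, and the other two lay above it. Wild-type control mice overlapped with both the knockout control and the wild-type Western-diet mice, while every knockout control mouse lay above every wild-type Western-diet mouse.

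In the knockout, Cd163 fell from the control to the Western diet by 1.15 on the log2 scale (SE 0.23, adjusted p = 0.00162 by limma), 2.23-fold. In the wild type the same difference was -0.24 (SE 0.23, adjusted p = 0.562). The interaction of -0.91 (SE 0.32) did not pass (adjusted p = 0.0873), so a difference between the genotypes in this response was not shown on this scale. Under the Western diet the knockout was lower than the wild type by 1.55-fold (log2 difference -0.64, SE 0.23), which passed narrowly (adjusted p = 0.0461). That call was lost when any of 7 of the 12 libraries was left out. Without wild-type Western-diet replicate 2, the difference was -0.48 (adjusted p = 0.173), and without both libraries that stood apart it was -0.48 (adjusted p = 0.172). The 6 others whose removal ended the call were wild-type Western-diet replicate 3, wild-type control replicate 3, knockout control replicates 2 and 3, and knockout Western-diet replicates 2 and 3. On the control diet the genotypes differed by 0.27 (SE 0.23, adjusted p = 0.604). Recovered counts of Cd163 were 54 to 121 per library, which leaves a wide counting error: 54 counts in knockout Western-diet replicate 3 gave a 95% Poisson interval of 31.3 to 54.4 normalized counts.

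C1qa and C1qb were highest in the knockout mice on the Western diet and varied little between the control-diet groups. C1qa stood at 1441, 1466 and 1484 normalized counts in those mice (1464 ± 21.9), above all 9 other mice. The wild type on the same diet stood at 1010, 612 and 862 (828 ± 201). On the control diet, C1qa was 811, 701 and 722 in wild-type mice (744.6 ± 58.4) and 762, 942 and 854.5 in knockout mice (853 ± 89.9). These 3 groups overlapped, and the lowest mouse of all was wild-type Western-diet replicate 2.
C1qb was also highest in the 3 knockout mice on the Western diet. It stood at 2563, 3126 and 2726 (2805 ± 290) in the knockout and at 2076, 1059 and 1498 (1544 ± 510.4) in the wild type on the Western diet. On the control diet, wild-type mice had 1200, 1139 and 1133 (1158 ± 37.0) and knockout mice 1188, 1443 and 1242 (1291 ± 134). The wild-type mice on the Western diet spread widely for both genes, with replicate 1 highest and replicate 2 lowest.

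Under the Western diet, the knockout was higher than the wild type by 0.85 for C1qa (SE 0.15, adjusted p = 0.00359 by limma) and by 0.91 for C1qb (SE 0.19, adjusted p = 0.00574), which is 1.80-fold and 1.88-fold. In this comparison 2 of the 4 members were higher, 1 was lower and 1 did not pass, where 35.5% of all tested genes passed, 32.2% higher and 3.31% lower. Higher calls were thus common among all genes, whose median difference was 0.26, and lower calls were rare. Groups did not overlap for 2 of the 4 members, C1qa and C1qb, against 49.9% of tested genes. Both calls remained with any 1 library left out, and without both libraries that stood apart the differences were 0.65 and 0.66 (adjusted p = 0.00178 and 0.00424). Recentring each library on its own median, which moved the median of all genes to -0.30, left 0.29 and 0.35 and ended both calls (adjusted p = 0.0625 and 0.0590). In the authors' deposited table, which holds their one comparison, headed SK2 vs WT, the log2 fold change was 0.84 for C1qa (adjusted p = 0.00505) and 0.87 for C1qb (adjusted p = 0.00968). In the same authors' deposited table Cd163 stood at -1.08 (adjusted p = 0.0217) and Marco at 0.99 (adjusted p = 0.0725).

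From the control to the Western diet in the knockout, C1qa rose by 0.78 (SE 0.15, adjusted p = 0.00144) and C1qb by 1.12 (SE 0.19, adjusted p = 0.000567). All 4 members passed in this comparison, 2 higher and 2 lower, where 45.3% of tested genes passed, 37.3% higher and 7.95% lower. The knockout groups of the 2 diets did not overlap for any of the 4, against 57.6% of tested genes. Without both libraries that stood apart all 4 still passed, at -0.89 for Marco, -1.11 for Cd163, 0.86 for C1qa and 1.202 for C1qb. Recentred on the sample median, C1qa stood at 0.06 (adjusted p = 0.687) and was no longer called, while Cd163 and Marco stood at -1.88 and -1.65.
In the wild type none of the 4 members passed by limma, with 8.61% of tested genes called. Marco was the 1 member with an unadjusted p under 0.05, and voom and an equal-variance test called 0 of the 4 as well. C1qa differed by 0.13 and C1qb by 0.36 (SE 0.15 and 0.19, adjusted p = 0.655 and 0.255). Without wild-type Western-diet replicate 2 these were 0.33 and 0.61 and passed (adjusted p = 0.0497 and 0.00874). Groups did not overlap for Marco alone, against 28.0% of tested genes. Between genotypes on the control diet none of the 4 passed by limma, with 2.87% of tested genes called, and voom and the equal-variance test called 0. Marco was again the 1 with an unadjusted p under 0.05 and the 1 whose groups did not overlap, against 23.8% of tested genes. There C1qa differed by 0.19 and C1qb by 0.15, with 95% intervals from -0.13 to 0.52 and from -0.25 to 0.56.
The interaction was 0.66 for C1qa (SE 0.21, adjusted p = 0.0792) and 0.76 for C1qb (SE 0.26, adjusted p = 0.0857). None of the 4 members passed it by limma, voom or the equal-variance test, with 1.32% of tested genes called by limma. At an unadjusted p under 0.05, 3 of the 4 stood, all but Marco. In the averages added after seeing the data, 3 of the 4 members were higher in the knockout, where 23.0% of tested genes passed and 20.8% were higher, at 0.52 for C1qa and 0.53 for C1qb, and Cd163 did not pass (-0.18, adjusted p = 0.431). Recentred on the sample median, C1qa (0.18, adjusted p = 0.113) and C1qb (0.19, adjusted p = 0.158) did not pass this average, nor did they with age as a covariate (adjusted p = 0.0578 and 0.0809), and C1qb did not in the equal-variance test (adjusted p = 0.0521). With the Western diet, averaged over genotypes, all 4 passed, where 42.8% of tested genes did, 34.2% higher and 8.61% lower, with C1qa at 0.45, C1qb at 0.74 and Cd163 at -0.70.

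**Figure D2:**
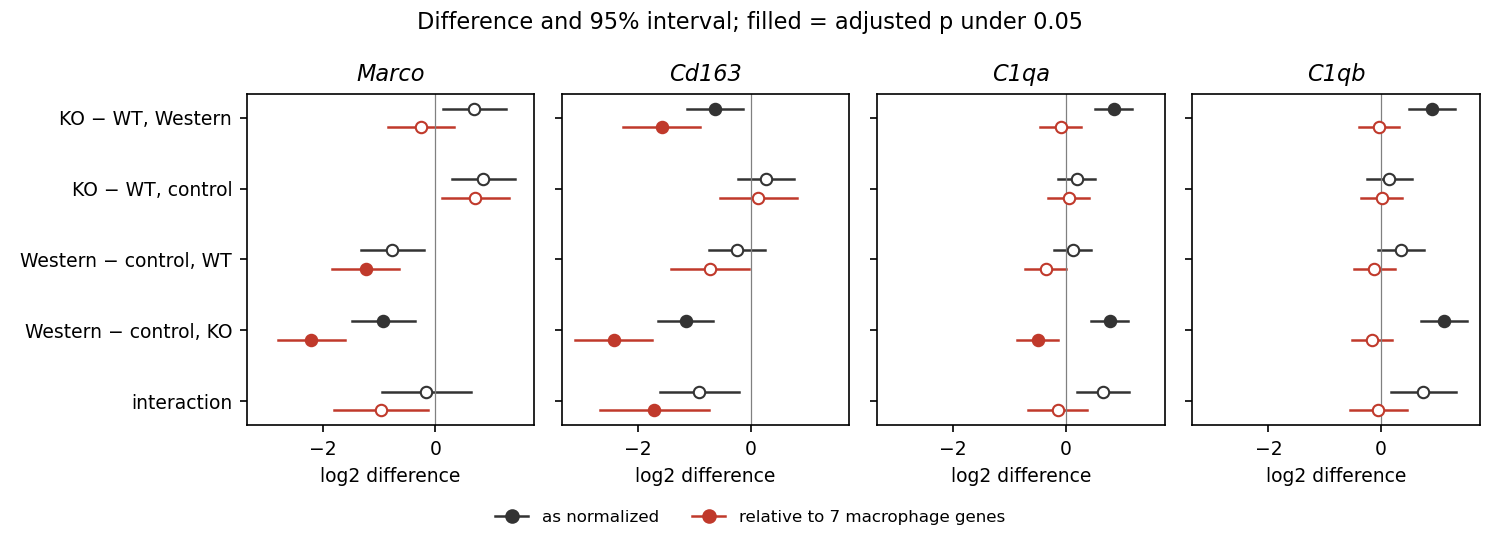
Log2 differences with 95% intervals for Marco, Cd163, C1qa and C1qb in 4 comparisons and the interaction, as normalized (black) and relative to 7 macrophage genes (red); filled points passed at an adjusted p of 0.05. Taken relative to the macrophage genes, the C1qa and C1qb differences between genotypes on the Western diet lie close to 0, while that of Cd163 is -1.58.

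Genes that most macrophages express differed between the same groups. Their list held 7 measured genes: Csf1r, which encodes the receptor of colony-stimulating factor 1, Emr1, which encodes the F4/80 antigen, the Fc receptor genes Fcgr1 and Fcer1g, the adaptor gene Tyrobp, the oxidase gene Cybb and the endotoxin co-receptor gene Cd14. Their summed level was 2129 to 2138 normalized counts in wild-type and 2181 to 2515 in knockout mice on the control diet. With the Western diet it was 1999 to 4151 in the wild type and 4988 to 5938 in the knockout. All 7 were higher in the knockout on that diet, by 0.77 to 1.18. The sum was thus highest in the mice with the highest C1qa and C1qb and the lowest mean Cd163. Within the wild-type Western-diet group, the mouse with the highest sum, replicate 1, had the highest C1qa and C1qb and the lowest Cd163, and the mouse with the lowest sum, replicate 2, had the reverse.

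**Figure D3:**
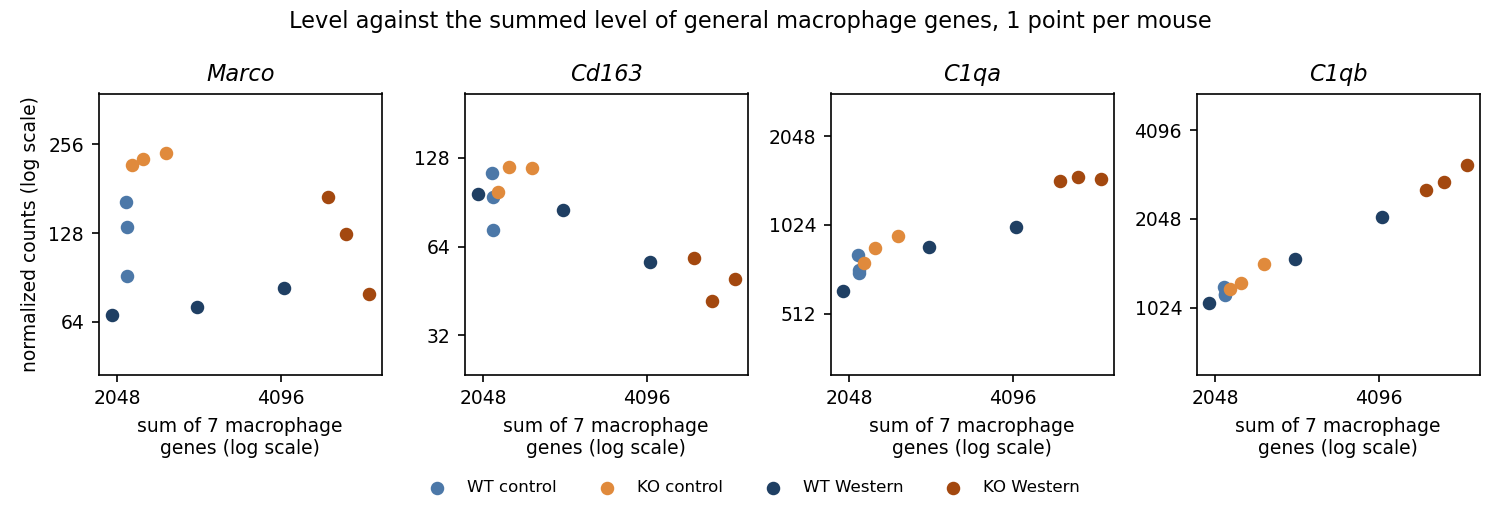
Normalized counts of each gene (log scale) against the summed normalized counts of the 7 macrophage genes (log scale), 1 point per mouse, coloured by group. C1qa and C1qb lie along 1 rising line, C1qb the more closely, whereas Cd163 is lowest where the sum is highest and Marco shows no single line.

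To set the members against these macrophage genes, the mean log2 level of the 7 was subtracted from every gene in each library, and the same limma fit was run. This quantity does not depend on how libraries were scaled, but it takes the 7 genes as the reference although they themselves differed. Under the Western diet, Cd163 relative to the reference was lower in the knockout by 2.99-fold (log2 difference -1.58, SE 0.33, adjusted p = 0.00348). The 3 knockout values, -3.28, -3.67 and -3.84, lay below the wild-type values of -2.99, -1.15 and -1.91. Marco (-0.26, adjusted p = 0.445), C1qa (-0.09, adjusted p = 0.657) and C1qb (-0.03, adjusted p = 0.869) did not pass. So 1 of the 4 members passed, where 58.3% of all tested genes did and 57.4% were lower, and the median of all genes was -0.68. The call for Cd163 remained with any 1 library left out, at -2.07 to -1.15, and without both libraries that stood apart (-1.15, adjusted p = 0.00560).

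In the knockout, Cd163 and Marco relative to the macrophage genes were lower on the Western diet by 5.42-fold and 4.62-fold (log2 differences -2.44 and -2.21, adjusted p = 2.03e-05 and 2.02e-05). C1qa was lower by 1.41-fold (-0.50, SE 0.17, adjusted p = 0.0148) and C1qb did not pass (-0.16, SE 0.17, adjusted p = 0.385). Here 3 of the 4 passed, all lower, where 80.4% of tested genes passed and 77.3% were lower, and the median gene stood at -1.02. Cd163 and Marco thus lay further down than the median gene, and C1qa and C1qb less far. Without both libraries that stood apart, Cd163 stood at -2.50, Marco at -2.28 and C1qa at -0.53, and all 3 passed. The call for C1qa was lost without knockout control replicate 3 or knockout Western-diet replicate 2 (-0.47 and -0.46, adjusted p = 0.0531 and 0.0610).
In the wild type, Marco was the 1 member of 4 that passed, where 11.7% of tested genes did and 10.8% were lower. Its log2 ratio was -0.48, -1.26 and -0.79 on the control diet and -2.44, -1.67 and -2.15 on the Western diet, with no overlap (difference -1.24, SE 0.28, adjusted p = 0.0138). It was not called without wild-type control replicate 1 (-1.06, adjusted p = 0.0909), wild-type Western-diet replicate 1 (-1.07, adjusted p = 0.0606) or replicate 3 (-1.21, adjusted p = 0.0584). Cd163 in the wild type was -0.72 (adjusted p = 0.140) and reached -1.16 (adjusted p = 0.00396) without wild-type Western-diet replicate 2. On the control diet none of the 4 passed between genotypes by limma, with 1.32% of tested genes called. The 1 member with an unadjusted p under 0.05 was Marco, at 0.71 (SE 0.28, adjusted p = 0.331).
Over all tested genes the interaction had a median of -0.59, with 10.2% of genes passing and 9.71% lower. It passed for Cd163 alone among the 4, at -1.71 (SE 0.46, adjusted p = 0.0351). It remained called in 3 of the 12 fits that left out 1 library, and was lost without any library but knockout control replicate 1 and wild-type Western-diet replicates 1 and 2 (adjusted p up to 0.0985). With Csf1r alone as the reference, C1qb turned upward with the Western diet, by 0.44 in the wild type and 0.44 in the knockout (adjusted p = 0.0365 and 0.0115), C1qa stood at 0.21 and 0.11, and Cd163 and Marco stayed negative.

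**Figure D4:**
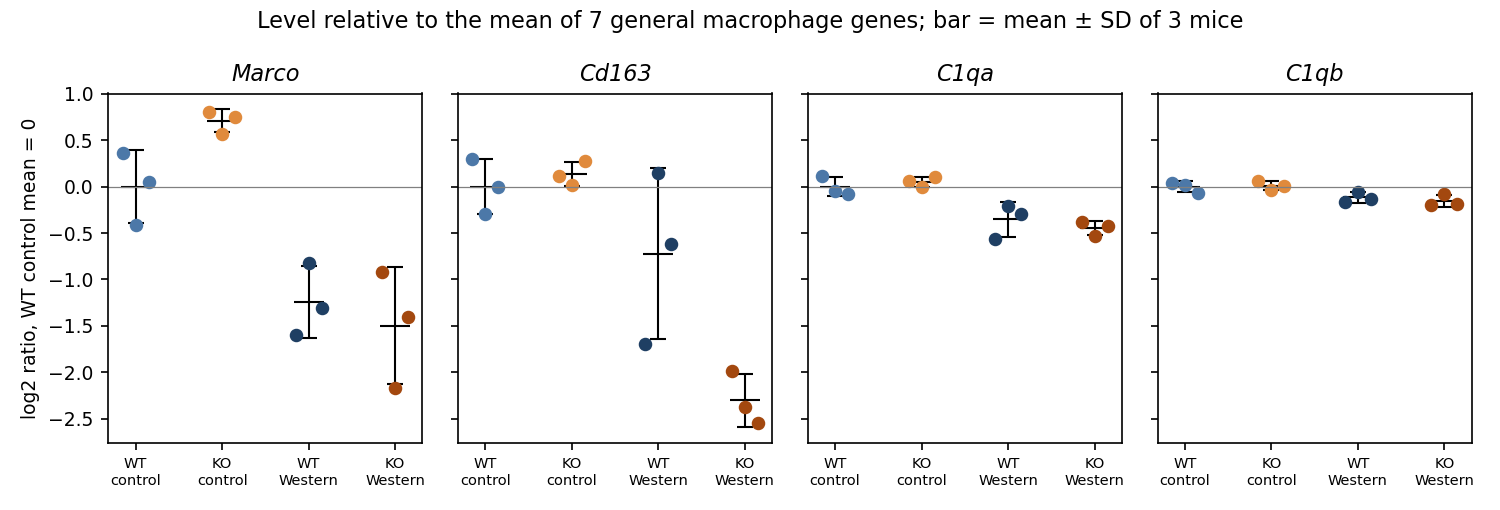
Log2 ratio of each gene to the mean of 7 macrophage genes in each mouse, set to 0 at the wild-type control mean of that gene; the bars are the mean ± SD of 3 mice. Cd163 is lowest in the knockout on the Western diet, Marco is lower on the Western diet in both genotypes, C1qa is slightly lower on the Western diet, and C1qb changes least.

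Ratios between the members within a library use no reference gene. A reference taken from every gene cancels in such a ratio, so their order follows from the values above and is no separate support. Of 12 exact permutation tests, 2 for each of 6 pairs, chosen after seeing the data and two-sided, 5 passed after adjustment. The smallest p that 400 permutations allow is 0.005. The ratio of Marco to Cd163 was higher in the knockout, at 2.23, 2.02 and 1.91 against 1.44, 1.26 and 1.42 on the control diet, and at 2.90, 1.59 and 3.06 against 1.47, 0.695 and 0.846 on the Western diet. In either diet all 3 knockout mice lay above all 3 wild-type mice, a difference of 1.95-fold (exact p = 0.005, adjusted p = 0.015). It did not differ detectably with diet (log2 difference -0.14, exact p = 0.57, adjusted p = 0.622).
The ratio of Marco to C1qb was 0.0806 to 0.184 in the 6 control-diet mice and 0.0254 to 0.0660 in the 6 Western-diet mice, 3.02-fold lower (exact p = 0.005, adjusted p = 0.015). That of Marco to C1qa was 2.48-fold lower on the Western diet (exact p = 0.005, adjusted p = 0.015). The ratio of Cd163 to C1qb was 2.73-fold lower (exact p = 0.015, adjusted p = 0.036), and that of Cd163 to C1qa 2.24-fold lower, which did not pass (exact p = 0.03, adjusted p = 0.06). The mean ratio of Cd163 to C1qb was 0.0869 on the control and 0.0180 on the Western diet in the knockout, and 0.0806 and 0.0585 in the wild type, where the diets overlapped.
The 2 C1q genes did not keep a fixed ratio either. C1qb over C1qa was 1.48, 1.63 and 1.57 in wild-type mice and 1.56, 1.53 and 1.45 in knockout mice on the control diet. With the Western diet it was 2.06, 1.73 and 1.74 in wild-type mice and 1.78, 2.13 and 1.84 in knockout mice. All 6 mice on the Western diet lay above all 6 on the control diet, by 1.22-fold (exact p = 0.005, adjusted p = 0.015), with no detectable difference between genotypes (log2 difference of C1qa over C1qb -0.01, exact p = 0.885, adjusted p = 0.885).

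Likeness to each member was described by the SD over the 12 libraries of the log2 ratio to each of 452 other tested genes, a measure free of library scaling and given without a test. The genes most like C1qb were Fcer1g (SD 0.075), Emr1 (0.098), Tyrobp (0.11), Il10rb, a chain of the interleukin 10 receptor (0.11), and Lair1, an inhibitory receptor for collagen (0.12). Those most like C1qa were Cfp, which encodes properdin (0.11), Csf1r (0.12), the scavenger receptor gene Msr1 (0.13), the interferon gamma receptor gene Ifngr1 (0.13) and the integrin gene Itgal (0.13). The median over all genes was 0.52 for C1qb and 0.42 for C1qa, and the C1q genes ranked 14th and 17th for each other, at an SD of 0.18. The macrophage reference used above holds 3 of the 5 genes nearest to C1qb and 1 of those nearest to C1qa.
For Cd163 the nearest genes were Ceacam1 (0.27), the interleukin 1 co-receptor gene Il1rap (0.30), the mitochondrial transporter gene Abcb10 (0.30), the lipid-presenting gene Cd1d1 (0.32) and Hamp, the gene of the iron hormone hepcidin (0.33), against a median of 0.66. For Marco they were the circadian repressor gene Nfil3 (0.37), the B cell chemokine gene Cxcl13 (0.41), the repressor gene Gfi1 (0.42), the leukotriene receptor gene Ltb4r1 (0.43) and the C1 inhibitor gene Serping1 (0.43), against a median of 0.74. The nearest gene was thus less close for Cd163 and for Marco than the 5 nearest genes were for either C1q gene. These SDs include counting error, which is larger at low counts, and its part was not tested. Recovered counts per library were 54 to 121 for Cd163 and 66 to 231 for Marco. For C1qa they were 600 to 1922 and for C1qb 1018 to 3530. To Cd163, Marco was the gene ranked 206 and C1qb the gene ranked 381.

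Among scavenger receptor genes, 4 of 13 listed were measured, Marco, Cd163, Msr1 and Cd36. Msr1 encodes the class A receptor closest in structure to MARCO, and Cd36 a receptor for long-chain fatty acids that hepatocytes and endothelium also express. Msr1 was 561, 610 and 575 normalized counts in the knockout on the Western diet and 406.5, 230.5 and 306 in the wild type, without overlap (log2 difference 0.92, SE 0.16, adjusted p = 0.00331). With the diet in the knockout it rose by 0.81 (adjusted p = 0.00150), opposite to Marco and Cd163. Cd36 rose with the diet in the knockout by 1.45 (adjusted p = 0.0120), and differed by 0.02 between genotypes on the Western diet (SE 0.41, adjusted p = 0.967). So in the knockout 2 of the 4 receptor genes rose with the diet and 2 fell, where 37.3% of all tested genes were higher and 7.95% lower. In the wild type 0 of the 4 were called with diet. Without both libraries that stood apart, Cd36 (1.39, adjusted p = 0.00425 by limma) and Msr1 (0.42, adjusted p = 0.0193) rose there too. Marco (-0.70) and Cd163 (-0.40) did not pass in that fit.

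Of 17 listed genes of the classical complement pathway and its regulators, 10 were measured and tested. C1qa and C1qb were the 2 that passed between genotypes on the Western diet, and the other 8 lay between -0.26 and 0.18. These were the C1 protease genes C1ra (0.03) and C1s (-0.14), C2 (0.07), C4a (0.02), C3 (0.11), the inhibitor genes Serping1 (0.18) and C4bp (-0.26), and C1qbp (-0.13), whose product binds C1q but is mainly mitochondrial. The list's median was 0.05, against 0.26 for all tested genes. With the Western diet in the knockout, the C1q genes rose and 5 others fell: C3 (-0.90), Serping1 (-0.58), C4a (-0.57), C4bp (-0.38) and C1qbp (-0.26), while C2 (-0.52), C1ra (-0.32) and C1s (-0.10) did not pass. The list's median was -0.35 there, against 0.27 for all genes. By limma, voom or the equal-variance test, none of the 10 passed in the wild type with diet, between genotypes on the control diet or in the interaction. At an unadjusted p under 0.05 these comparisons held 1, 3 and 4 of the 10. Knockout control replicate 2, which stood apart, had the highest level of the 12 mice in 7 of the 10 genes, all but C1qa, C1qb and C1qbp. Without both libraries that stood apart, the falls with diet in the knockout passed for C3 (-0.64), C4bp (-0.24) and C1qbp (-0.32) and not for Serping1 (-0.38, adjusted p = 0.0555) or C4a (-0.32, adjusted p = 0.0975), and C4bp was lower between genotypes on the Western diet (-0.25, adjusted p = 0.0455).

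Interleukin 10 is a cytokine known to induce CD163. Of 10 tested genes of interleukin 10 and interleukin 6 signalling, 2 were higher in the knockout on the Western diet, where 32.2% of all tested genes were higher. These were the receptor genes Il10ra (0.85, adjusted p = 0.0102 by limma) and Il10rb (0.69, adjusted p = 0.0130). The other 8 did not pass, among them Il10 itself (0.22, adjusted p = 0.504). On the control diet, Stat3 (0.54, adjusted p = 0.0147) and the shared receptor gene Il6st (0.45, adjusted p = 0.0226) were higher in the knockout. In that comparison 2.87% of all tested genes passed. With the Western diet in the knockout, 2 of the 10 rose and Stat3 alone fell, by 0.61 (adjusted p = 0.000745). Of all tested genes 37.3% were higher there and 7.95% lower. Without both libraries that stood apart the 5 calls named by gene remained. Il10ra stood at 0.70 and Il10rb at 0.46 on the Western diet, Stat3 at 0.42 and Il6st at 0.34 on the control diet, and Stat3 at -0.50 with diet.

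Markers of other cells also differed between genotypes on the Western diet, where 32.2% of all tested genes were called higher, and their part in the members' differences was not tested. Counts and sums below are over the tested genes of each list. In Western-diet mice, 3 of 3 markers of lipid-associated macrophages, Trem2, Cd9 and Itgax, were higher in the knockout, with a summed level of 867 to 1041 against 270 to 568 normalized counts in the wild type. The authors' deposited log2 fold change was 1.09 for Cd9 but 0 for Trem2 and Itgax. Of 4 markers of recruited monocytes 3 were higher, with sums of 472 to 503 against 142 to 387. Of the neutrophil list 2 of 4 were higher (sums of 790 to 833 against 207 to 373), of 8 T and NK cell markers 2, a share below that of all genes (276 to 300 against 196 to 258), of 7 B cell markers 3 (341 to 394 against 214 to 281), of 2 dendritic cell markers both (219 to 243 against 96.9 to 167) and of 4 endothelial markers 2 (1022 to 1099 against 789 to 877). Of 13 genes of proteins that hepatocytes secrete, 2 were lower in the knockout on the Western diet and 8 fell with that diet in the knockout. Of all tested genes 3.31% and 7.95% were lower in these comparisons. Knockout control replicate 2, which stood apart, was high for some of them, such as Hc at 9032 normalized counts against 3531 and 6024 in its group. The falls are not given without that library. None of the summed levels was at 0 in any group.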

How the data were processed

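The authors deposited a workbook of log2 normalized counts, per the file headers, and their own log2 fold change, p-value and adjusted p-value per gene in 1 comparison. The sources used here do not say how they scaled libraries or tested. Within a library, 100% of the deposited log2 values, once returned to the linear scale, were whole numbers times a single factor (tolerance 0.001). These recovered counts set the depth and counting intervals, which cover counting error only. A series-wide value table holds the same values, but all 12 of its columns match another mouse of the workbook. The workbook was used because its sheets name each animal, diet and genotype, so every group difference rests on that choice.

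The planned test assumed linear values. The log2 values were returned to the linear scale and tested as log2(value + 1), which understates changes of low genes. One linear model of the 4 group means over the 12 libraries was fitted by limma 3.58.1 (R 4.3.3), with eBayes moderation and its mean-variance trend. Genes with a mean of at least 20 were tested (453, with 94 left out). Tests were two-sided, and Benjamini-Hochberg adjustment, at 0.05, ran over the tested genes of each comparison. With 3 mice against 3 no exact permutation test of a single comparison was used, as it cannot go below 0.1. The sources do not say whether mice shared cages or litters. The fit was tested on simulated data.

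Members and gene lists were chosen with earlier results of these data known. The text names the 4 members, all tested genes of the complement and scavenger receptor lists and the 7 reference genes. It also names up to 4 genes of each other list in a comparison (those with the smallest p), Il10, and the 5 genes most like each member. Alternatives tried were other scalings, filters and pseudocounts, other tests and variance models, age as a covariate, the second table and fewer libraries. Averages over diets or genotypes and the tests of ratios were added after seeing the data. Promoter windows came from RefSeq and matched 3 of 4 members by symbol.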

Additional observations from a re-analysis of the deposited data

Results flagged for a closer look

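The diet response of Cd163 relative to the 7 macrophage genes differed between genotypes by a test of the difference itself, at -1.71 on the log2 scale (SE 0.46, adjusted p = 0.0351 by limma). The ratio fell by 2.44 with the Western diet in the knockout and stood at -0.72 in the wild type, where 1 of the 3 Western-diet mice, replicate 2, lay within the range of the control-diet mice. As normalized, without the macrophage reference, the same interaction was -0.91 and did not pass (adjusted p = 0.0873). The adjusted p ranged from 0.000613 to 0.0985 over the fits that left out 1 library, and was 0.0368 without both libraries that stood apart. The 7 reference genes were themselves higher in the knockout on the Western diet. Their own interactions, 0.57 to 0.93, are subtracted in this value, so part of it is the reference. The median of all tested genes in this relative interaction was -0.59.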

How the results depend on the processing

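No paired analysis was possible because replicate numbers were given in deposited order and do not pair mice. The rise of C1qa and C1qb with the Western diet in the knockout, and the fall of Cd163 there, kept their direction under every setting run, other than Cd163 by the series value table. The cause of the changes below was not tested.

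With a filter at a mean of 50, Marco passed between genotypes on the Western diet (0.69), and 39 genes passed the interaction, against 6 as reported and 2 with no filter. Cd163 did not pass that genotype comparison in an equal-variance test (-0.64, adjusted p = 0.0757) or with only the 2 groups fitted (-0.64, adjusted p = 0.0817), which called 7 and 7 genes between genotypes on the control diet and 25 and 19 with diet in the wild type. With age as a covariate neither Cd163 there (-0.62, adjusted p = 0.0636) nor the diet difference of Marco in the knockout (-0.79) passed, and 5, 18, 92 and 1 genes passed between genotypes on the control diet, with diet in the wild type, with diet in the knockout and in the interaction. Without a variance trend 21 genes passed with diet in the wild type and 2 in the interaction.

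Recentring on the median ratio called Marco with diet in the wild type (-0.84), with 21 genes between genotypes on the control diet and 37 in the interaction. Recentring on the sample median moved the median gene from 0.26 to -0.30 between genotypes on the Western diet and from 0.27 to -0.46 with diet in the knockout. It left C1qa and C1qb at 0.29 and 0.35 in the former, C1qa at 0.0565 in the latter, at -0.15 with diet in the wild type and at -0.0474 averaged over genotypes, while Marco in the wild type (-1.04) and the interaction of Cd163 (-1.36) passed. It called 71 genes with diet in the wild type and 66 in the interaction. Quantile normalization called Marco in the wild type (-1.002) and the interaction of C1qa (0.61), with 95, 23 and 28 genes between genotypes on the Western diet, on the control diet and in the interaction. Between genotypes on the Western diet, calls split into 146 higher and 15 lower as normalized, 69 and 43 by the median ratio, 26 and 130 by the sample median, and 42 and 53 by quantiles. With diet in the knockout they split into 169 and 36, 108 and 96, 55 and 228, and 82 and 108.

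Without both libraries that stood apart, Cd163 did not pass between genotypes on the Western diet (-0.48). C1qa (0.33) and C1qb (0.61) passed with diet in the wild type, as did Cd163 (-1.16) and C1qa (-0.43) relative to the macrophage genes, and 114 genes passed there. With Csf1r alone as the reference, C1qa and C1qb stood at 0.0082 and 0.0660 between genotypes on the Western diet, at 0.21 and 0.44 with diet in the wild type and at 0.11 and 0.44 in the knockout, and Marco in the wild type did not pass (-0.68).

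By the columns of the deposited value table, limma called 0 genes in each of the 5 comparisons (at an unadjusted p under 0.05, 45 between genotypes on the Western diet, 45 on the control diet, 22 with diet in the wild type, 49 in the knockout and 71 in the interaction). There Cd163 (0.36), C1qa (0.39) and C1qb (0.26) did not pass between genotypes on the Western diet. On the control diet Marco, C1qa and C1qb stood at -0.21, -0.71 and -0.81. Cd163, C1qa and C1qb stood at 0.23, -0.60 and -0.64 with diet in the wild type, and Marco, Cd163, C1qa and C1qb at 1.04, 0.0152, 0.51 and 0.43 in the knockout. The interaction of Marco was 1.27. Averaged over diets, Cd163, C1qa and C1qb stood at 0.47, -0.16 and -0.28, and averaged over genotypes Marco, Cd163, C1qa and C1qb at 0.40, 0.12, -0.0434 and -0.11.

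Leaving out 1 library moved the genotype difference on the Western diet between 0.44 and 0.98 for Marco and between -0.86 and -0.48 for Cd163. The diet difference in the wild type ranged from -0.99 to -0.58 for Marco, -0.41 to -0.0211 for Cd163, -0.0328 to 0.33 for C1qa and 0.12 to 0.61 for C1qb. The interaction ranged from -0.41 to 0.13 for Marco, -1.13 to -0.74 for Cd163, 0.46 to 0.82 for C1qa and 0.51 to 0.997 for C1qb. Relative to the macrophage genes, Marco ranged from -0.55 to 0.0797 between genotypes on the Western diet, -1.45 to -1.06 with diet in the wild type and -1.26 to -0.63 in the interaction. Cd163 ranged from -0.0121 to 0.28 between genotypes on the control diet, -1.16 to -0.24 with diet in the wild type and -2.20 to -1.28 in the interaction. C1qa ranged from -0.43 to -0.25 in the wild type and -0.53 to -0.46 in the knockout, and C1qb from -0.0190 to 0.0356 between genotypes on the control diet. Genes called ranged from 84 to 177 and 6 to 43 between genotypes on the Western and control diets, 3 to 94 with diet in the wild type and 1 to 100 in the interaction.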
